A study of Mus musculus with 11 samples.

Results

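Broad distal domains of acetylated chromatin that carry no RBPJ site were described in Beko cells, a line of mouse pre-T cells. The mark was acetylation of histone H3 at lysine 27 (H3K27ac), measured by chromatin immunoprecipitation and sequencing (ChIP-seq). A domain was included where its region was at least 5000 bp wide, did not cover a transcription start site (TSS) and was not marked as overlapping an RBPJ site. These conditions were met by 923 of the 56342 regions in the authors' deposited table, or 1.64% of them. The domains made up 10.2% of the acetylated bases and 12.9% of the summed base mean, which is the authors' mean of normalised read counts over libraries.

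All groups were the same cell line grown in the same medium, and each was treated for 24 h. One group received DMSO, the solvent control. Another received apicidin, a histone deacetylase inhibitor that the labels assign to HDAC3, at 0.01 mg/ml, and the last received DAPT, a gamma-secretase inhibitor (GSI), at 10 mg/ml, the doses as labelled. Each condition had 2 H3K27ac libraries and 1 input, and RBPJ was mapped with 2 libraries in DMSO cells alone, so a domain without RBPJ is one without a site under DMSO. Beko cells are 1 line, and the labels do not say whether the libraries of a condition came from separate cultures. A p-value here therefore reflects only how far these libraries differ, which may be technical spread. Changes in all cells and larger changes in some of the cells cannot be told apart in such bulk data.

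H3K27ac is laid down by acetyltransferases at active promoters and enhancers and removed by histone deacetylases. Long stretches of the mark away from promoters usually hold several enhancers of one gene, and in lymphoid cells such stretches lie near genes of lineage identity. Notch receptors, once cut by gamma-secretase, release a domain that joins the DNA-binding protein RBPJ and recruits acetyltransferases. Without that domain RBPJ binds corepressors that include deacetylases. Pre-T cells depend on Notch and on the pre-T cell receptor (pre-TCR).

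The labelled cell type was checked on regions over the TSS of defining genes. Such a region was present for 16 of 18 T-cell markers. It was present for 1 of 11 B-cell markers (Igll1), 3 of 14 natural killer and innate lymphoid markers (Gzma, Prf1 and Tbx21) and 1 of 11 fibroblast and epithelial markers (Pdgfrb). None of 16 myeloid, 13 erythroid and megakaryocyte or 10 neuronal markers had one, as matched by symbol. The myeloid list counts Adgre1 and Emr1 separately, which are both symbols of 1 gene. Among the domains themselves, 16 were assigned to T-cell markers, 1, at Gzma, to a natural killer marker and none to a gene of the other lists. Regions of any kind numbered 299 at the T-cell markers, 25 at the natural killer and innate lymphoid markers and 5 to 34 in each other list. Domains are 1.64% of all regions, so the lack of a domain in lists with so few regions says little.

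Each domain is assigned in the table to the gene of the nearest TSS, and an assignment does not show that the domain acts on that gene. The accessions or symbols of all 923 were matched to RefSeq names, and 825 domains (89.4%) belonged to protein-coding genes, against 90.4% of all regions. Long noncoding RNA genes held 79 domains and microRNA genes 16, the latter spread over 13 genes of which 11 had an entry in the RefSeq microRNA table. Of these microRNAs 4 are shown with the seed (bases 2 to 8, which pair with targets) in capitals, because their domains gave different responses, described further on. The sequences are RefSeq's (GRCm38.p6), 5′ to 3′, and no 2 of them share a seed.
miR-181a-5p: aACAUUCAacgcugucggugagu
let-7c-5p: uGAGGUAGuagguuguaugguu
miR-218-5p: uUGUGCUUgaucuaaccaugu
miR-17-5p: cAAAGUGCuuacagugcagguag

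One promoter window is also shown, that of Lef1, a T-lineage transcription factor whose domain and TSS region are described with the T-lineage genes. It holds the 250 bases before the first RefSeq start of Lef1, on the plus strand at chr3:131110047-131110296 of GRCm38.p6, a different build from that of the table.
Lef1 promoter: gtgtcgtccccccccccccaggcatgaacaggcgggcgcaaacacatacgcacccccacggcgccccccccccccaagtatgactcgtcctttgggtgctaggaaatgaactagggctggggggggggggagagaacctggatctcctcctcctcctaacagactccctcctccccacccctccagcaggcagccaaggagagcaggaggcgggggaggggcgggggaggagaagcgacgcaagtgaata
Neither the RBPJ core TGGGAA nor the TCF/LEF core CTTTGA was found in it on either strand, and capitals would have marked a match. The RBPJ core occurred in 21.6% of 32851 RefSeq promoter windows of the same length and the TCF/LEF core in 13.8%.

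The domains were between 5000 and 38577 bp wide, with a median of 6527 bp (quartiles 5584 and 8198). Their density, the base mean per kb, had a median of 225 (quartiles 184 and 285), against 107 over all regions. Broad regions over a TSS without RBPJ had a median density of 280, and broad distal regions with RBPJ one of 279. Narrower distal regions without RBPJ had one of 99.9. Those among them with a base mean at least that of the weakest domain had 224, near that of the domains. That cut on base mean itself favours dense regions where they are narrow. The median distance to the assigned TSS was 23.7 kb, and 244 domains lay over 50 kb away. At the width threshold, the narrowest domains in the authors' deposited table were those of Sall3 (5000 bp) and Esrrb (5001 bp), and the widest regions left out were at 1700121N20Rik (4999 bp) and Plcl1 (4998 bp).

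The widest domain, at chr11:11598903-11637479 on mm9, was assigned to Ikzf1, which encodes Ikaros, a zinc finger factor of lymphoid development. It was followed by domains of Nck2, an adaptor of receptor signalling (30969 bp), Socs1, an inhibitor of cytokine signalling (29110 bp), Sept9, a septin (26104 bp), and Thy1, a thymocyte surface glycoprotein (25522 bp). The densest domain, with 984 per kb, lay 31.7 kb from Mirlet7c-2, a let-7 gene. Next came Myh9, a nonmuscle myosin heavy chain (698), Ttll12 (655), Abr (640), and Ptgds, a prostaglandin D synthase (630).

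On the authors' normalised scale, inhibition of deacetylases raised more of the domains than it lowered. With apicidin, 360 of the 923 domains rose and 238 fell, or 39.0% and 25.8%, by the authors' adjusted p (under 0.05). Over all 56342 regions, 9.69% rose and 14.1% fell, 23.8% in all, against 64.8% of the domains. The share called grows with the precision of a region, and the median standard error (SE) was 0.0788 in the domains against 0.314 over all regions. The nearest like set was therefore the 2263 narrower distal regions without RBPJ whose base mean was at least that of the weakest domain. Of these 24.6% rose and 32.7% fell, with a median SE of 0.105. Their median base mean was 689 against 1553 in the domains. The set thus matches the domains only in its lower bound, and its calls remain less precise. The median log2 fold change was 0.07 in the domains (quartiles -0.20 and 0.36), -0.06 in that like set and 0.00 over all regions. A rise or fall, here and below, is on that normalised scale and so relative to the other regions. A change shared by all regions may not show on it.

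Among called domains, 60.2% were thus higher with apicidin. That split was 71.6% after centring on the median of the stronger regions, which lay at -0.10, and 76.6% after subtracting the trend over base mean. By distance, 38.4% of domains up to 10 kb from the TSS rose, 39.4% of those at 10 to 50 kb and 38.9% of those over 50 kb. By width, 40.2% of domains under 6 kb rose and 42.9% of those of 12 kb or more.

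**Figure D1:**
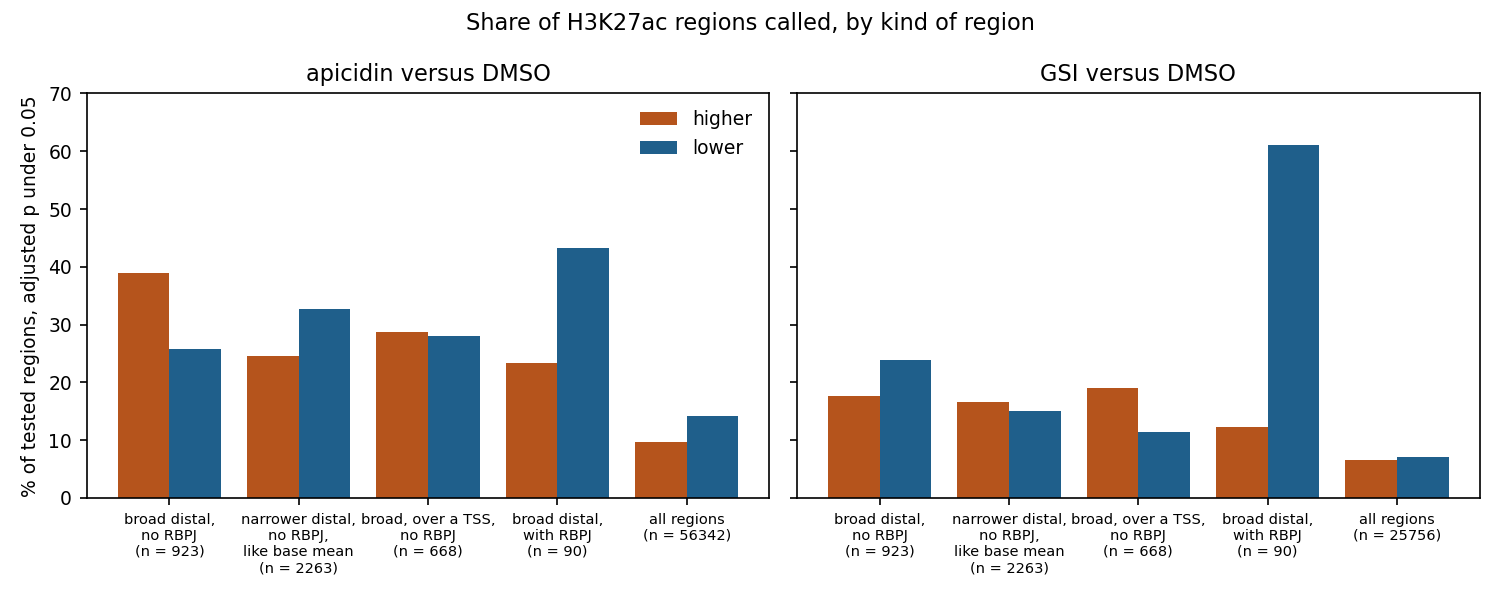
Percentage of tested regions called higher or lower (authors' adjusted p under 0.05) with apicidin (left) and GSI (right), for the 923 broad distal domains without RBPJ, the like set of 2263 narrower regions, 668 broad regions over a TSS, 90 broad distal regions with RBPJ, and all regions. With apicidin 39.0% of the domains rose and 25.8% fell, and with GSI 61.1% of the broad distal regions with RBPJ fell against 23.8% of the domains.

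Sparse and dense domains differed in their counts with apicidin, a description chosen after the values were seen. Of the 231 least dense domains (85.3 to 184 per kb), 118 rose and 42 fell, with a median log2 fold change of 0.26. Of the 231 densest (285 to 984 per kb), 47 rose and 94 fell, with a median of -0.09, but the direction in these depended on the scaling: 65 rose and 68 fell after centring, and 70 rose and 59 fell after subtracting the trend. With GSI the order was the other way: 27 rose and 60 fell among the least dense, and 60 rose and 43 fell among the densest. The base mean behind the density includes the treated libraries, and the part of this in the result was not tested.

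All 5 of the densest domains fell with apicidin. In the authors' deposited table the Mirlet7c-2 domain changed by -0.58 ± 0.0509 on the log2 scale (SE, adjusted p = 4.70e-27). The Myh9 domain had -0.51 ± 0.0575 and the Ptgds domain -0.49 ± 0.0650, as the authors' deposited table gives them. For Abr the deposited table of the authors has -0.91 ± 0.0578 (adjusted p = 9.52e-53), and for Ttll12 it has -0.22 ± 0.0561. With GSI the same 5 domains lay between -0.18 and 0.20 in the authors' deposited table, where Abr fell (adjusted p = 0.0161) and Ptgds rose (adjusted p = 0.0201). Both of these GSI calls end at an adjusted p under 0.01, that of Ptgds also after trend subtraction, and the apicidin call of Ttll12 ends after centring (-0.12) and after trend subtraction (-0.08).

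The largest single changes with apicidin exceeded 1 on the log2 scale in both directions, with 15 domains at least that much higher and 6 at least that much lower. The strongest increase was at Slc9a9, a sodium/proton exchanger of endosomes, at chr9:94518018-94523744. It rose by 1.69 ± 0.0889 with apicidin and by 0.74 ± 0.0939 with GSI in the authors' deposited table (adjusted p = 3.72e-76 and 4.52e-13). The region over the Slc9a9 TSS rose too, by 1.28 ± 0.0614 and 0.55 ± 0.0637 in the authors' deposited table. Tuba8, a tubulin gene, followed with 1.49 ± 0.104 in the authors' deposited table. Prkcq and Tcf7, described with the T-lineage genes, were also among the 10 largest increases.

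The strongest decrease lay 34.7 kb from Pdgfa, a platelet-derived growth factor gene, at chr5:139427346-139436174. It had -1.81 ± 0.0761 with apicidin (adjusted p = 7.02e-121) and -1.25 ± 0.0770 with GSI (adjusted p = 5.28e-56) in the authors' deposited table. Its nearest RBPJ-overlapping region was 188 kb away. Glis1, a zinc finger factor, had -1.60 ± 0.0930 and -1.15 ± 0.0948, and Nxph3, a neurexophilin, -1.08 ± 0.0723 and -1.02 ± 0.0743, as listed in the authors' deposited table. Mfsd4 had -1.43 ± 0.0864 and Lyrm9 -1.23 ± 0.0806 with apicidin in the authors' deposited table. The other named decreases with apicidin, at Exoc3l4, Abr, Trib1, Ccdc93 and Plekha2, lay between -1.03 and -0.85 in the authors' deposited table.

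**Figure D2:**
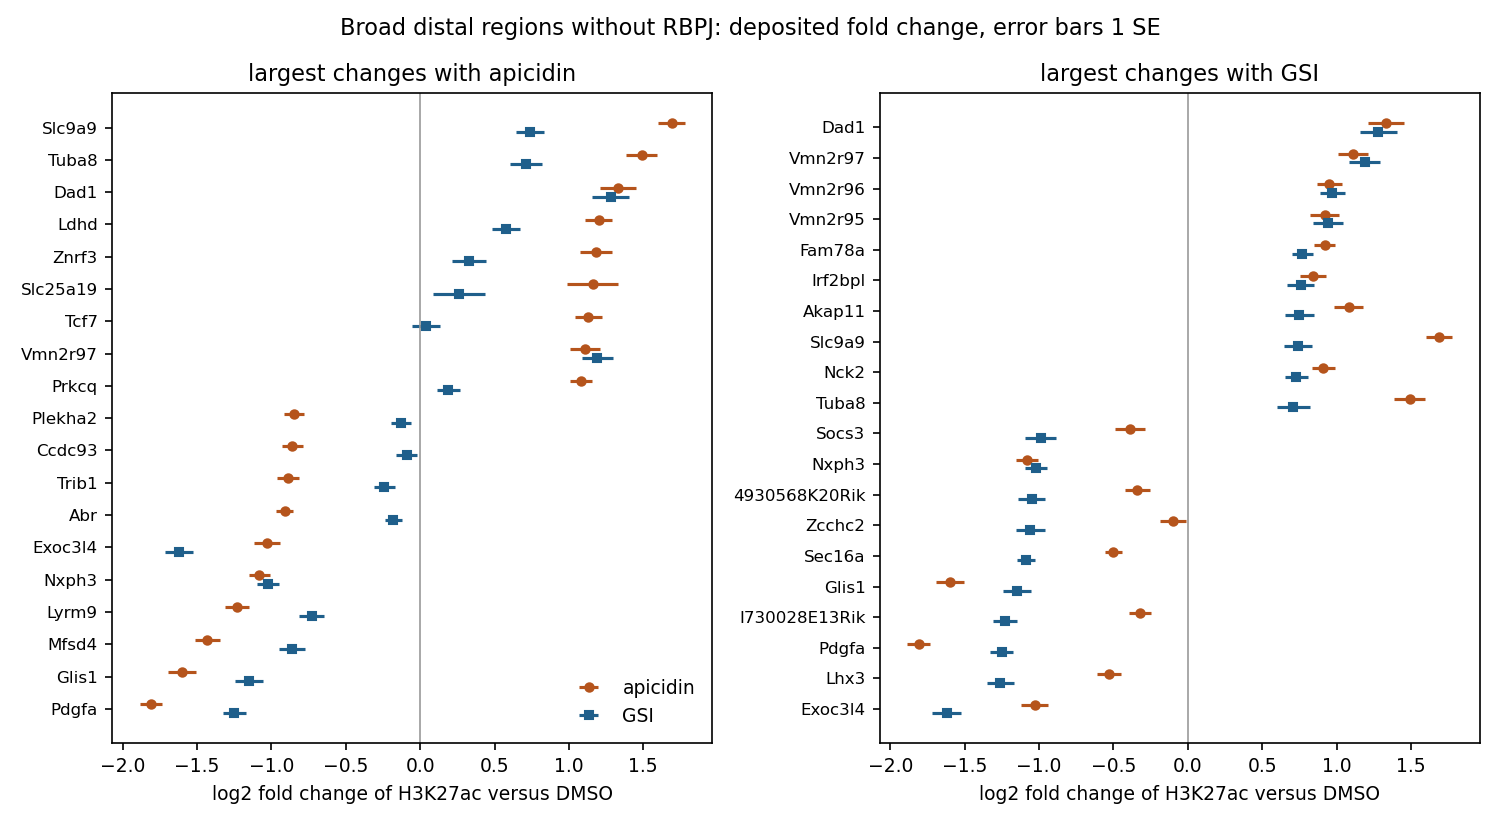
Log2 fold change of H3K27ac against DMSO (x axis) for the largest called changes with apicidin (left, 9 of the 10 largest increases and the 10 largest decreases) and with GSI (right, 10 of each), from the authors' deposited table. Circles are apicidin, squares GSI, and bars 1 SE. Slc9a9 (1.69) and Pdgfa (-1.81) mark the ends with apicidin, and Dad1 (1.28) and Exoc3l4 (-1.62) those with GSI.

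Domains of T-lineage transcription factors rose with apicidin. Of 57 genes in that list, 14 had a domain, 20 domains in all: 16 rose, none fell and 4 were not called (Irf8, Stat5a, Ikzf2 and 1 of 2 at Myb). Those that rose were 80.0%, against 39.0% of all domains and 9.69% of all regions. Decreases made up 25.8% of all domains and 14.1% of all regions. The list median was 0.37 against 0.07 for all domains and 0.00 for all regions, as a description of a list chosen with earlier results of these data known. With GSI 1 of the 20 rose and 5 fell, with a median of -0.02.

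Tcf7 encodes TCF1, a Notch-induced factor that starts the T-cell programme. Its domain at chr11:52131180-52136457 rose by 1.13 ± 0.0900 with apicidin (adjusted p = 3.40e-33) and had 0.04 ± 0.0957 with GSI (adjusted p = 0.857) in the authors' deposited table. This domain lay 0.238 kb from an RBPJ-overlapping region. The other Tcf7 domain had 0.44 ± 0.0788 with apicidin, and the region over the TSS 0.70 ± 0.0568, both called in the authors' deposited table. All 3 were higher with apicidin and not called with GSI.

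Lef1, the partner factor of TCF1 in thymocytes, gave opposite calls. Its domain at chr3:130766080-130771166 rose by 0.51 ± 0.0971 with apicidin (adjusted p = 2.96e-06) and fell by 0.70 ± 0.107 with GSI (adjusted p = 4.93e-09) in the authors' deposited table. The region over the Lef1 TSS, by the authors' deposited table, had 0.53 ± 0.0585 with apicidin and -0.19 ± 0.0608 with GSI (adjusted p = 0.0162). The domain and the TSS region therefore went the same way under each treatment.

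Ikzf1 had 3 domains, and all rose with apicidin. The widest rose by 0.44 ± 0.0483 with apicidin (adjusted p = 4.99e-18) and fell by 0.26 ± 0.0495 with GSI (adjusted p = 7.38e-06) in the authors' deposited table. The domain next to it, at chr11:11638409-11647211, rose by 0.82 ± 0.0788 and had 0.00 ± 0.0836 with GSI in the authors' deposited table. The one on the far side of the TSS region, at chr11:11553814-11562971, had 0.31 ± 0.0668 and 0.22 ± 0.0682, both called in the authors' deposited table. Neighbouring domains of 1 gene thus fell, were not called or rose with GSI. The region over the Ikzf1 TSS, which adjoins the widest domain, rose by 0.36 ± 0.0505 with apicidin in the authors' deposited table. With GSI that region rose by 0.29 ± 0.0511 (adjusted p = 5.34e-07) in the authors' deposited table, opposite to the widest domain.

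Runx1, a core factor of blood development, had a domain that rose by 0.74 ± 0.0827 with apicidin (adjusted p = 4.20e-17) in the authors' deposited table. Ets1, an Ets factor of lymphoid cells, rose by 0.57 ± 0.0606, as given in the authors' deposited table. The 3 domains of its relative Fli1 had 0.16 ± 0.0580, 0.36 ± 0.0641 and 0.50 ± 0.0764 in the authors' deposited table, all called higher. Bcl11b, which fixes T-cell commitment, rose by 0.16 ± 0.0610 with apicidin (adjusted p = 0.0392) and fell by 0.28 ± 0.0632 with GSI in the authors' deposited table, the increase not being called at an adjusted p under 0.01. Stat5a, which acts below cytokine receptors, had 0.01 ± 0.0684 with apicidin and fell by 0.38 ± 0.0701 with GSI in the authors' deposited table.

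Genes of the T-cell receptor, the pre-TCR and the thymocyte surface gave a like picture. Of 56 genes in the list, 22 had a domain, 31 domains in all. With apicidin 20 rose and 2 fell (64.5% and 6.45%, against 39.0% and 25.8% of all domains), and the median was 0.35. Prkcq encodes the protein kinase C of the T-cell synapse, and its domain at chr2:11110737-11119743 rose by 1.08 ± 0.0729 (adjusted p = 1.18e-46) in the authors' deposited table. Thy1 rose by 0.62 ± 0.0528, Grap2, an adaptor of TCR signalling, by 0.52 ± 0.0533, and Cd2, an adhesion receptor, by 0.56 ± 0.0835 in the authors' deposited table. The 2 that fell were Fyn, a Src-family kinase, with -0.46 ± 0.0580, and Cd44, an adhesion receptor of early thymocytes, with -0.39 ± 0.0711, in the authors' deposited table.

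With GSI, 4 of these 31 domains rose and 5 fell (12.9% and 16.1%), around a median of 0.03. Both shares were below those of all domains (17.7% and 23.8%). Ctla4, an inhibitory receptor, showed the largest gap between treatments of all domains. It rose by 0.92 ± 0.119 with apicidin and fell by 0.60 ± 0.129 with GSI (adjusted p = 8.39e-05) in the authors' deposited table. Cd3e, a CD3 chain, had 0.17 ± 0.0721 with apicidin (adjusted p = 0.0641) and fell by 0.48 ± 0.0764 with GSI (adjusted p = 2.54e-08) in the authors' deposited table. Domains outside both T-lineage lists numbered 872, and 324 of them rose and 236 fell with apicidin, with a median of 0.05. With GSI 18.1% of these 872 rose and 24.1% fell, against 9.80% and 19.6% of the domains in the 2 lists together.

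**Figure D3:**
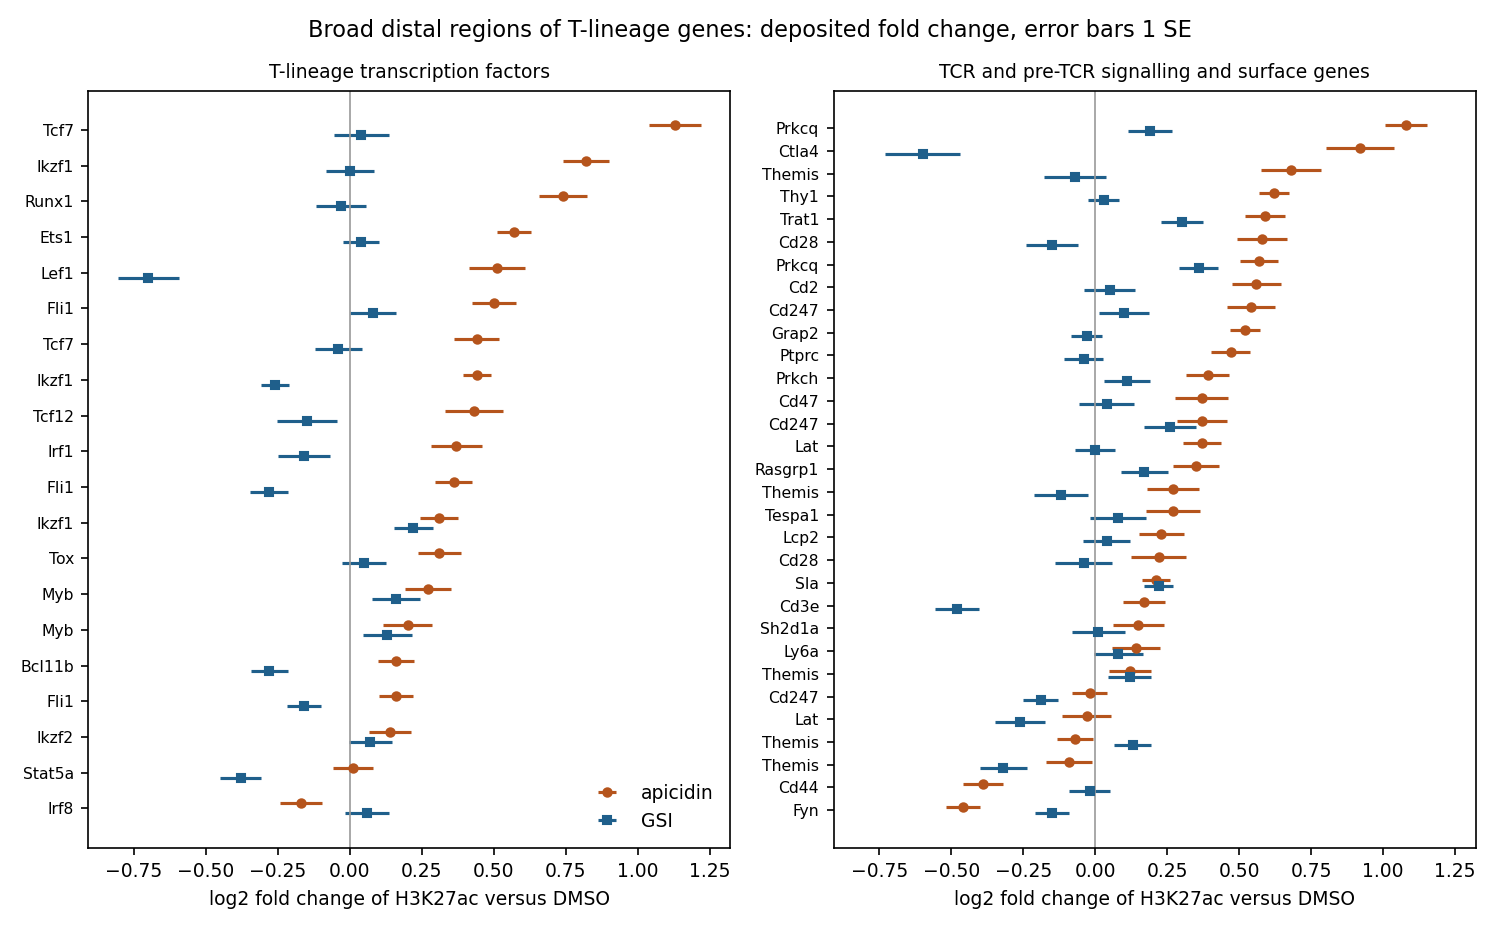
Log2 fold change against DMSO (x axis) of the 20 domains of T-lineage transcription factors (left) and the 31 domains of TCR, pre-TCR and surface genes (right), 1 row a domain, ordered by apicidin. Circles are apicidin, squares GSI, bars 1 SE. With apicidin 36 of the 51 rose and 2, at Fyn and Cd44, fell (70.6% and 3.92%, against 39.0% and 25.8% of all domains). With GSI 5 rose and 10 fell (9.80% and 19.6%, against 17.7% and 23.8%).

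Inhibition of gamma-secretase changed fewer domains than apicidin did by count. With GSI 163 of 923 domains rose and 220 fell, or 17.7% and 23.8%. Over the 25756 regions with an adjusted p for GSI, 6.62% rose and 7.17% fell, 13.8% in all, against 41.5% of the domains. In the like set of narrower regions 16.6% rose and 15.0% fell, with a median SE of 0.109 against 0.0811 in the domains. Of the 90 broad distal regions with RBPJ, 12.2% rose and 61.1% fell, with a median of -0.33 against -0.01 in the domains. The median over all regions was 0.00.

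The largest decrease with GSI was at Exoc3l4, an exocyst-related gene, at chr12:112664466-112670999. It had -1.62 ± 0.0964 with GSI (adjusted p = 5.84e-60) and -1.03 ± 0.0895 with apicidin in the authors' deposited table, and it lay 36.5 kb from an RBPJ-overlapping region assigned to Gm266. Zcchc2 fell by 1.06 ± 0.0974 with GSI and had -0.10 ± 0.0896 with apicidin (adjusted p = 0.480) in the authors' deposited table. Socs3, an inhibitor of cytokine signalling, fell by 0.99 ± 0.106 with GSI in the authors' deposited table. The Socs1 domain, 1 of the widest, fell by 0.39 ± 0.0523 with GSI and had -0.09 ± 0.0513 with apicidin (adjusted p = 0.242) in the authors' deposited table.

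Domains were also sorted by their distance to the nearest RBPJ-overlapping region, a description chosen after the values were seen. Within 10 kb of an RBPJ-overlapping region, 26 of 74 domains fell and 9 rose, and at 200 kb or more 100 of 516 fell and 99 rose. Of the 202 domains within 50 kb, 69 had as nearest an RBPJ-overlapping region that fell with GSI. Among these 69 domains 41 (59.4%) fell and 4 rose, with a median of -0.34. Of the 123 near an RBPJ-overlapping region that was not called, 23 fell and 22 rose, with a median of 0.00. Among the other 854 domains 179 (21.0%) fell. The 69 domains lay near only 45 RBPJ-overlapping regions, and both values come from the same libraries, so they are not independent, and the difference was not tested.

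With apicidin the counts of the same 69 domains were more even than with GSI. Of them 25 rose and 25 fell (36.2% each), with a median of -0.02. Among all domains 39.0% rose and 25.8% fell, so the share that fell was larger in the 69. Of the 123 near an uncalled RBPJ-overlapping region 50 rose and 29 fell (40.7% and 23.6%), near the shares of all domains. The like set of narrower regions, of lower median base mean and larger SE, was also described. Of its 78 near a fallen RBPJ-overlapping region, 31 fell with GSI and 6 rose (39.7% and 7.69%). Of its 306 near an uncalled one, 28 fell and 46 rose (9.15% and 15.0%). Over the whole like set 15.0% fell and 16.6% rose. A larger share of decreases near a fallen RBPJ-overlapping region was thus not particular to the broad domains.

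**Figure D4:**
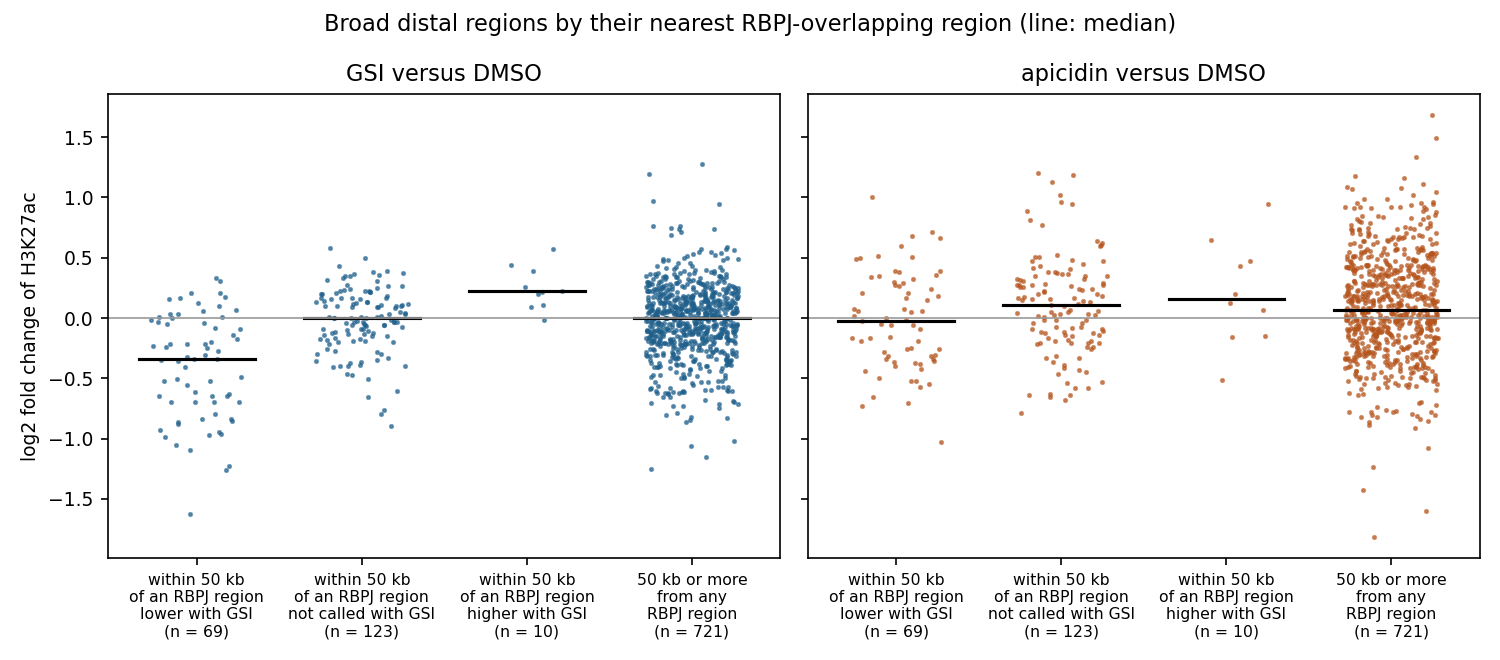
Log2 fold change against DMSO (y axis) of the 923 domains with GSI (left) and apicidin (right), 1 point a domain, grouped by the GSI call of the nearest RBPJ-overlapping region within 50 kb, or by lying 50 kb or more from any. Black lines are medians. With GSI the median is -0.34 for the 69 domains near a fallen RBPJ-overlapping region and 0.00 for the 123 near an uncalled one.

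Of 31 Notch target and Notch receptor genes 8 had a domain, 13 domains in all. With GSI 6 fell and 1 rose (46.2% and 7.69%), against 23.8% and 17.7% of all domains and 7.17% and 6.62% of all regions. With apicidin 6 fell and 4 rose (46.2% and 30.8%), against 25.8% and 39.0% of all domains and 14.1% and 9.69% of all regions. Of these genes Tcf7, Lef1, Rapgef1, Ccnd3, Cd44 and Il2ra also stand in another list, and the 4 increases with apicidin were those of Tcf7 (2 domains), Lef1 and Rapgef1. The increase with GSI, at a Rapgef1 domain, lost its call at an adjusted p under 0.01, after centring and after trend subtraction. Hey1 and Heyl encode repressors that Notch induces directly. The Hey1 domain had -0.92 ± 0.0741 with GSI (adjusted p = 6.30e-33) and -0.71 ± 0.0709 with apicidin in the authors' deposited table. The Heyl domain had -0.52 under both treatments in the authors' deposited table, with SEs of 0.0702 and 0.0678. Il2ra, the alpha chain of the interleukin 2 receptor and a marker of Notch-dependent thymocytes, had -0.70 ± 0.0717 with GSI and -0.36 ± 0.0686 with apicidin in the authors' deposited table. These domains lay 0.118, 0.419 and 4.23 kb from an RBPJ-overlapping region.

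Several domains that fell with GSI lay around Notch1 and in a neighbourhood beyond Myc. At Notch1 itself, an RBPJ-overlapping region of 40582 bp that covers the TSS fell by 0.77 ± 0.0496 with GSI in the authors' deposited table. On one side, 4.27 kb away, the Sec16a domain (chr2:26310504-26332268) fell by 1.09 ± 0.0597 (adjusted p = 8.87e-71) in the authors' deposited table. On the other, 24.4 kb away, the Egfl7 domain (chr2:26401537-26417900) fell by 0.96 ± 0.0571 (adjusted p = 8.88e-60) in the authors' deposited table. The Lhx3 domain, 294 kb off, fell by 1.26 ± 0.0908 and lay 8.82 kb from another RBPJ-overlapping region, which fell by 0.88 ± 0.0720, both in the authors' deposited table. With apicidin the Sec16a, Egfl7 and Lhx3 domains had -0.50, -0.31 and -0.53, all called, in the authors' deposited table. Between the Lhx3 and Sec16a domains the region over the Qsox2 TSS fell by 0.78 ± 0.0696 with GSI, and those at Gpsm1 and Dnlz were not called, in the authors' deposited table. Also between them lay an RBPJ-overlapping region (chr2:26301065-26305070) and a narrow region without RBPJ, both assigned to Sec16a. These fell by 0.30 ± 0.0988 and 0.40 ± 0.120 with GSI in the authors' deposited table. With apicidin they rose, by 0.29 ± 0.0938 and 0.41 ± 0.111, all called in the authors' deposited table.

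The other neighbourhood lies far beyond Myc, a driver of growth that Notch activates in pre-T cells through a remote enhancer. The table assigns it to Gm20740, and it held 5 domains between 1265 and 1607 kb from the region over the Myc TSS. The domain nearest to Myc, at chr15:63087729-63094722, lay 0.279 kb from an RBPJ-overlapping region and fell by 0.94 ± 0.0798 with GSI (adjusted p = 1.37e-29) in the authors' deposited table. The remaining 4 fell too, with values from -0.83 to -0.51 in the authors' deposited table. With apicidin 1 of the 5 rose, by 0.39 ± 0.0813, and the others lay between -0.09 and 0.17 without a call in the authors' deposited table. The region over the Myc TSS itself overlaps RBPJ. It had -0.40 ± 0.0634 with GSI and -0.26 ± 0.0620 with apicidin, both called, in the authors' deposited table.

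**Figure D5:**
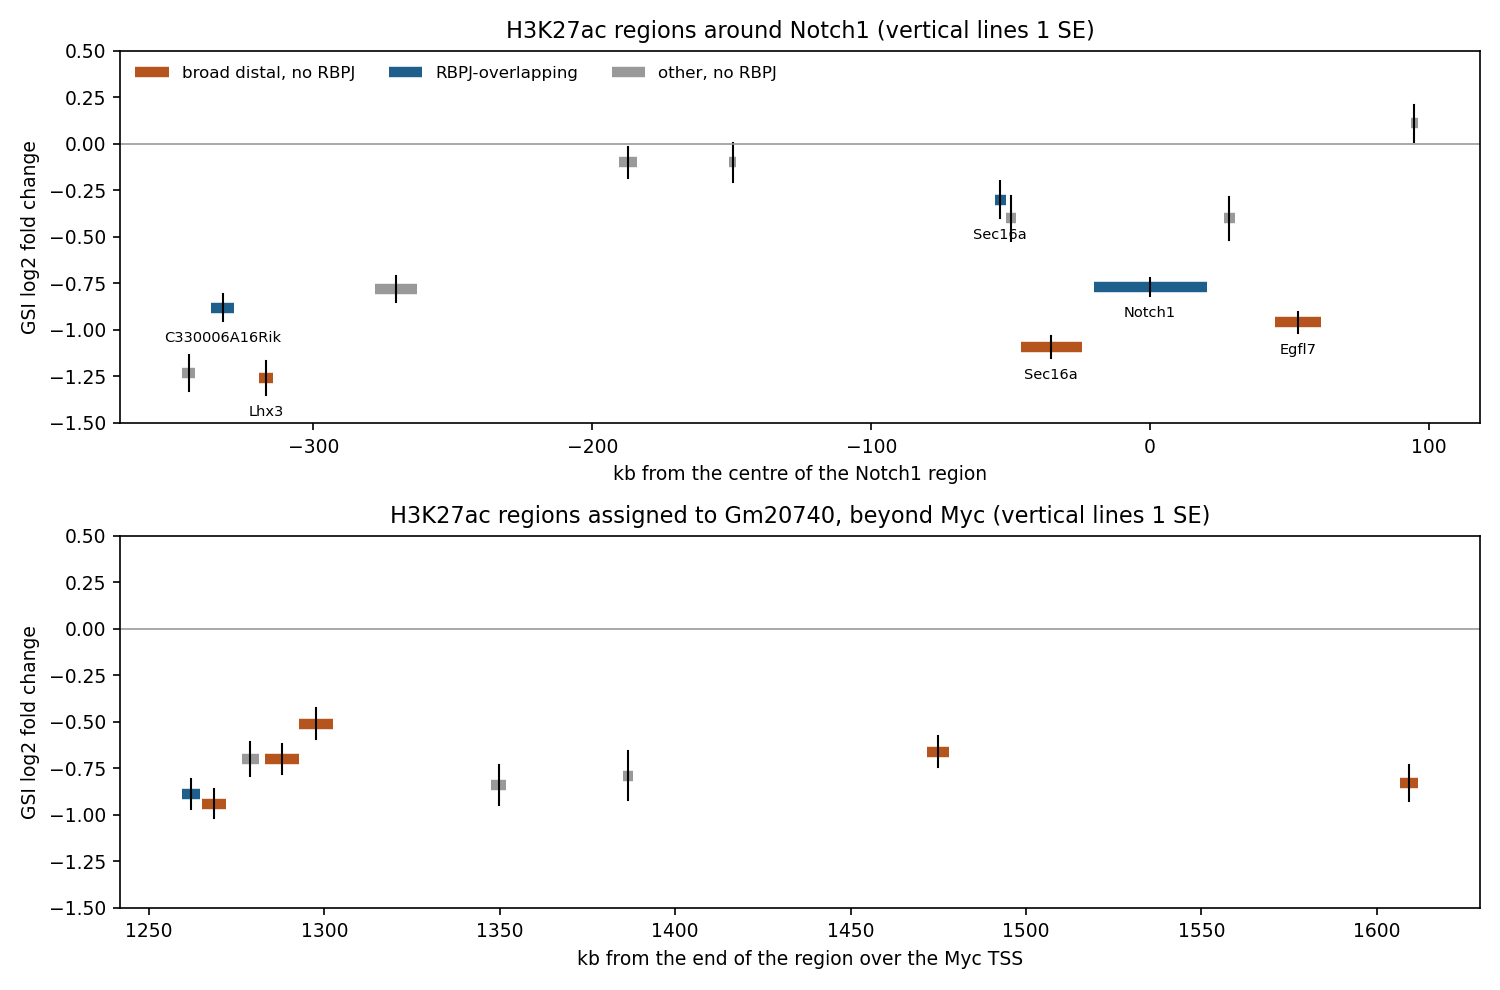
GSI log2 fold change (y axis) of regions as strong as the weakest domain, drawn to scale as horizontal bars along kb from the centre of the Notch1 region (top) or from the end of the region over the Myc TSS (bottom), with vertical lines of 1 SE. The Sec16a (-1.09), Egfl7 (-0.96) and Lhx3 (-1.26) domains lie below the Notch1 region (-0.77), and all 5 Gm20740 domains lie between -0.94 and -0.51.

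Increases with GSI were fewer, and only 2 of them reached 1 on the log2 scale. Dad1, a subunit of the oligosaccharyltransferase, adjoins the T-cell receptor alpha locus, and its domain at chr14:54765041-54770143 lay 103 kb from the TSS. It rose by 1.28 ± 0.125 with GSI (adjusted p = 4.95e-22) and by 1.33 ± 0.122 with apicidin in the authors' deposited table. The 3 domains assigned to the vomeronasal receptor genes Vmn2r97, Vmn2r96 and Vmn2r95 rose by 1.19 ± 0.105, 0.97 ± 0.0841 and 0.94 ± 0.0997 with GSI in the authors' deposited table. With apicidin they rose by 1.11, 0.95 and 0.92 in the authors' deposited table, and their nearest RBPJ-overlapping region was 1985 kb or more away. Fam78a rose by 0.77 ± 0.0720, Irf2bpl by 0.76 ± 0.0911 and a domain of Nck2 by 0.73 ± 0.0801 with GSI in the authors' deposited table.

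Which domains responded differently to the 2 drugs was tested on apicidin minus GSI in log2 fold change, divided by the root of the summed squared SEs. The DMSO libraries enter both comparisons, which makes that SE larger than the true one. By adjusted p over all 56342 regions, the difference of apicidin minus GSI was positive in 262 domains (28.4%) and negative in 116 (12.6%). Over all regions 3.01% were positive and 5.60% negative, 8.61% in all. The median difference was 0.13 in the domains, -0.07 in the narrower like set and 0.01 over all regions.

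The most positive difference was that of Ctla4, 1.52 ± 0.175 (adjusted p = 4.28e-15). It was followed by 1 of the 3 domains of Mir5127 (1.35 ± 0.145), by Kntc1, a checkpoint protein of the kinetochore (1.27 ± 0.165), by Lef1 (1.21 ± 0.145) and by Lrrc32, a receptor of regulatory T cells (1.18 ± 0.139). Each of these 5 was called higher with apicidin and lower with GSI. The most negative difference was -0.97 ± 0.124 at T, the gene of the mesoderm factor Brachyury. Hist1h4d, a replication-dependent histone gene, had -0.89 ± 0.0926, Ccdc93 -0.77 ± 0.0988, Prl5a1 -0.74 ± 0.0879 and Abr -0.73 ± 0.0818. At T the domain fell by 0.50 ± 0.0883 with apicidin and rose by 0.47 ± 0.0878 with GSI in the authors' deposited table. Other domains called in opposite directions lay at Cbfa2t3, a corepressor of the ETO family, which rose by 0.55 ± 0.0765 and fell by 0.38 ± 0.0816, and at Nptn, with 0.44 ± 0.111 and -0.41 ± 0.120, in the authors' deposited table.

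Some domains came in groups. Joining those within 100 kb of each other gave 620 groups, of which 173 held 2 or more domains. Of the groups, 80 held 3 or more domains and 290 domains in all. No such count is given for other regions. Some grouped domains almost adjoin, as the 2 of Myb do (chr10:20904538-20910980 and chr10:20910992-20918723). Like calls within a group may thus be those of 1 acetylated stretch. Among 101 groups with at least 2 domains called with apicidin, all called domains rose in 51 and all fell in 19, while 31 were mixed. Among 50 such groups for GSI, 12 rose throughout, 33 fell throughout and 5 were mixed. The largest group held 10 domains over 263 kb from Ahi1 across Myb, the proto-oncogene of early blood cells, to Hbs1l. Of its 6 domains assigned to Ahi1, the widest rose by 0.31 ± 0.0589 with apicidin and fell by 0.50 ± 0.0617 with GSI (adjusted p = 6.60e-14) in the authors' deposited table. The 2 domains of Myb had 0.27 ± 0.0803 and 0.20 ± 0.0838 with apicidin, the first called, and 0.16 ± 0.0827 and 0.13 ± 0.0863 with GSI, neither called, in the authors' deposited table. In the group of Nck2 and 1500015O10Rik all 6 domains rose with apicidin and 4 rose with GSI.

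The Themis gene, which sets TCR signal strength in thymocytes, had 5 domains with different responses. The one at chr10:28411375-28417240 rose by 0.68 ± 0.103 with apicidin (adjusted p = 1.17e-09) in the authors' deposited table. The one at chr10:28231258-28241208 had -0.09 ± 0.0795 with apicidin and fell by 0.32 ± 0.0813 with GSI (adjusted p = 0.00137) in the authors' deposited table. Of the 5, 2 rose and none fell with apicidin, and 1 fell with GSI. The smaller of the 2 increases (0.27) lost its call at an adjusted p under 0.01, and another domain gained one after centring and after trend subtraction.

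Each domain was set beside the strongest region over the TSS of its assigned gene, which existed for 659 domains of 477 genes. Over all 659 the TSS region rose for 144 and fell for 192 with apicidin, and rose for 55 and fell for 98 with GSI. Beside the 235 domains not called with apicidin it rose for 34 and fell for 71. Beside the 395 not called with GSI it rose for 30 and fell for 41. Of 263 such domains that rose with apicidin, the TSS region rose for 99, fell for 46 and was not called for 118. Of 161 that fell, it fell for 75, rose for 11 and was not called for 75. With GSI, 156 such domains fell, and their TSS region fell for 55, rose for 3, was not called for 89 and was untested for 9. Of 108 that rose with GSI, it rose for 22, fell for 2, was not called for 82 and was untested for 2. Both regions were read in the same libraries.

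The microRNA domains varied in the same way. Mir181a-1, a microRNA of thymocyte selection, had a domain of 12831 bp that rose by 0.40 ± 0.0680 with apicidin and by 0.21 ± 0.0693 with GSI in the authors' deposited table. Mir218-2 fell, with -0.81 ± 0.0927 and -0.79 ± 0.0968, and Mir17, of the miR-17 cluster, had -0.02 ± 0.0646 and 0.16 ± 0.0656, neither called, in the authors' deposited table. The denser of 2 Mirlet7c-2 domains fell with apicidin, as given above, and had 0.10 ± 0.0510 with GSI (adjusted p = 0.189) in the authors' deposited table. Of all 16, 2 rose and 6 fell with apicidin (12.5% and 37.5%, against 39.0% and 25.8% of all domains). With GSI 1 rose and 6 fell (6.25% and 37.5%, against 17.7% and 23.8%). Of these 6 decreases 3 were domains of Mir5127, 1 of them with -0.97, lower than Mir218-2.

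Few domains belonged to the other gene lists, whose counts are read against all domains, of which 39.0% rose and 25.8% fell with apicidin and 17.7% rose and 23.8% fell with GSI. Small GTPase regulators had 15 domains, of which 5 rose and 4 fell with apicidin (33.3% and 26.7%, near those of all domains) and 6 rose and 4 fell with GSI, a larger share higher than among all domains. The remaining lists hold 8 domains or fewer, too few to read a share from. A domain of Prex1, an exchange factor for Rac, rose by 0.63 ± 0.0810 and 0.49 ± 0.0834, and Rgs10, which quenches G-protein signals, had -0.49 ± 0.0733 and -0.40 ± 0.0747 in 1 of its 2 domains, in the authors' deposited table. Cell cycle and survival genes had 8 domains, with 1 higher and 2 lower with apicidin and none higher and 2 lower with GSI. Bid, a death-promoting Bcl2 relative, fell, with -0.41 ± 0.0723 and -0.54 ± 0.0746 in the authors' deposited table. The 5 domains of deacetylase, corepressor, acetyltransferase and bromodomain genes gave 2 increases and 2 decreases with apicidin, and 2 and 1 with GSI. Smarca4, the ATPase of a remodelling complex, fell, with -0.68 ± 0.0831 and -0.65 ± 0.0863 in the authors' deposited table. Cytokine and chemokine receptor genes had 4 domains (1 higher and 2 lower with apicidin, none and 2 with GSI), and adhesion and homing genes 5 (2 and 1, then none and 1).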

How the data were processed

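H3K27ac and RBPJ were profiled by ChIP-seq in the cells and groups described above. Reads were aligned to mm9, per the submitters' processing notes, which name FastQC, Bowtie2, SAMtools and deepTools. For the region caller and read counter nothing is given in the sources used here. The deposited table follows DESeq2's columns, per the file headers: base mean (a signal, the authors' mean of normalised counts), log2 fold change with its SE, Wald score, p-value and adjusted p-value. The headers name each treatment but no reference, which was taken to be DMSO. Adjustment of the authors' deposited p-values by Benjamini-Hochberg gave their adjusted ones within 1.03e-06. For GSI 30586 regions have no adjusted p and stayed untested, none of them a domain. No value per library was used here, so depth is unknown and the SE carries the precision. Calls use the authors' adjusted p under 0.05. The difference of treatments, its adjustment and the binned trend (20 bins of base mean) were computed in Python 3.11.15 with pandas 2.3.3, numpy 2.4.6 and scipy 1.17.1 (figures: matplotlib 3.10.9). These computations were tested on simulated data. The simulated errors of apicidin and GSI were independent, without the shared DMSO part, so that check covers the computation alone. The difference of treatments replaces a planned fit on library counts. The domains and gene lists were chosen with earlier results of these data known. The rule for named domains selects the 10 largest and 10 smallest called changes per treatment, the 5 widest, the 5 densest, those of the 5 genes with most domains, those just inside and outside the width threshold, the 5 largest called differences each way, up to 10 with opposite calls, and up to 4 per list and treatment by adjusted p. Other domains and regions were named after their values were seen. Alternatives were a stricter threshold, a minimum change, other widths and distances, joining, centring and trend subtraction. The text gives only part of the 112 domains that the rule selects, and some results are not reported here.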

Additional observations from a re-analysis of the deposited data

How the results depend on the processing

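No paired analysis was possible because the table holds no value per library, and for the same reason no library could be left out in turn. The count of domains higher with apicidin (360) became 144 when a log2 change of 0.5 or more was required, 547 at a width of 4000 bp or more and 126 at 7500 bp or more. The count lower with apicidin (238) became 69, 395 and 83 under the same settings, and 143 after subtracting the trend over base mean. For GSI the higher count (163) became 23, 251 and 59, and the lower count (220) became 86, 347 and 92. Positive differences of apicidin minus GSI (262) numbered 105 at 7500 bp or more, and negative ones (116) 41 there and 73 after centring. A wider or narrower width rule changes how many domains there are. The adjusted p under 0.01, a distance of 10 kb or more, joining of close domains and, for GSI, adjustment over all regions left each of the 4 counts of higher or lower domains within 1.5 times. The median log2 fold change of the domains stayed between 0.058 and 0.205 for apicidin and between -0.036 and -0.011 for GSI. Among 112 named domains no call changed sign, and trend subtraction ended 11 calls and added 10 for apicidin and ended 4 for GSI. Chosen after seeing the data, the same settings gave 31 to 43 increases of T-lineage list domains with apicidin, apart from 15 with changes of at least 0.5. The 41 domains that fell near a fallen RBPJ-overlapping region became 29 to 41. Weakly changed domains are limited by SEs of up to 0.171 for apicidin and 0.174 for GSI.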

Other observations

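Some genes with many domains are not T-lineage genes. Rreb1, a zinc finger factor below Ras, had 5 domains, of which 3 fell with apicidin and none was called with GSI. Of these 3, the smallest change (-0.25) lost its call at an adjusted p under 0.01, after centring and after trend subtraction. The widest of them, at chr13:37966232-37979703, fell by 0.41 ± 0.0512 (adjusted p = 4.19e-14) in the authors' deposited table. Fam86 had 6 domains spread over 163 kb, of which 4 fell with GSI and none rose, while 1 rose and 1 fell with apicidin. That decrease with apicidin lost its call after centring (-0.18) and after trend subtraction (-0.15), and 1 of the 4 decreases with GSI (-0.21) lost its call at an adjusted p under 0.01. The domain of Fam86 nearest to an RBPJ-overlapping region, 0.312 kb away, fell by 0.34 ± 0.0739 with GSI in the authors' deposited table. All 3 domains of Svil, a membrane-associated actin binder, fell with both treatments, with apicidin values from -0.74 to -0.58 and GSI values from -0.52 to -0.41. The 3 domains at Tbc1d22a fell with GSI, between -0.73 and -0.60. The group of Rhoh, a GTPase of TCR signalling, and Chrna9 held 4 domains that all rose with apicidin, from 0.43 to 0.95, and 2 of them rose with GSI.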
